A study of Mus musculus with 16 samples.

Results

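The RNAs described here are the protein-coding RNAs (pcRNAs) of 6 genes, *Pde1c*, *Pkhd1*, *Htr4*, *Dcdc2a*, *Ldb2* and *Chsy3*, out of 10736 pcRNA names in the data. They were selected on the number of listed pairs, because their RNA–DNA interaction pairs were few or missing in the Input library and many in the H3K27me3-RADIP library, so every difference in pairs between the libraries is a description of that selection and carries no test. The data came from 1 mouse embryonic stem cell (mESC) line, PGK12.1, crosslinked with 1% formaldehyde. RADIP joins an RNA to nearby chromatin DNA with a bridge adaptor inside fixed nuclei, then pulls down the joined molecules with an antibody, here one against H3K27me3. Input was the part of the same kind of lysate that was carried through without the antibody. The labels name 8 libraries per condition, the paper's text speaks of 4 biological replicates, and which libraries form a replicate is not given in the sources used here. They were merged into 1 table per condition, so no spread between replicates can be given. Each line of a table joins 1 RNA tag to 1 DNA tag and is called a pair. There were 1305107 pairs in the Input table and 1415135 in that of H3K27me3-RADIP, and both list a combination of an RNA and a 25-kb DNA bin only if its adjusted *P*-value (*q* value) was at most 0.1. The fewest pairs listed for any such combination was 7 in both tables. A combination that is not listed may therefore still hold some pairs, and a missing value is not a count of 0.

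H3K27me3 is the histone mark laid down by Polycomb repressive complex 2 (PRC2), and in mESCs it covers many genes of later development that are silent or transcribed at a low level. PRC2 binds RNA, and nascent transcripts stay close to the gene that makes them until they are released. The members are best known from differentiated tissues: *Pde1c* encodes a calcium- and calmodulin-dependent phosphodiesterase of cyclic nucleotides, *Pkhd1* encodes fibrocystin, which is mutated in autosomal recessive polycystic kidney disease, and *Htr4* encodes a serotonin receptor that couples to Gs. *Dcdc2a* encodes a doublecortin-domain protein of microtubules and cilia, *Ldb2* a cofactor of LIM-domain transcription factors, and *Chsy3* a chondroitin sulphate synthase. The tables hold no other tissue, so the tissue specificity of the 6 genes was not checked here.

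Nearly all RNA tags of these genes were intronic and their DNA tags lay in the same gene, in 54.3% of the H3K27me3-RADIP pairs in the same 25-kb bin. The paper leaves the origin of its intronic tags open between nascent transcripts, unspliced RNA and pieces of intron, and these pairs cannot decide it. In both libraries some pairs had overlapping tags, with centres closer than the tag length of 25 bases. An example in H3K27me3-RADIP is *Pde1c*, with RNA and DNA tags at 37.319 and 37.331 kb from the gene start. In Input, *Pkhd1* had such a pair at 215.431 and 215.443 kb. Whether pairs with overlapping tags are contacts of RNA with chromatin was not tested. The following stretches show pairs of short distance for 4 of the members. Each runs 5′ to 3′ on the strand of the gene, build GRCm38 (mm10), and holds an RNA tag and the DNA tag it was joined to in H3K27me3-RADIP, both in capitals, with the intron between them in lower case. The *Pde1c* stretch, chr6:56568053-56568268, held the position with the most pairs of that RNA, 3 with the same tags, and its DNA tag comes before its RNA tag. The *Pkhd1* stretch, chr1:20414879-20415024, lies in the bin that both tables list, and the DNA tag again comes first. In *Dcdc2a*, chr13:25100831-25100926, and *Ldb2*, chr5:44540804-44540984, the RNA tag comes first. The tag centres are 191, 121, 71 and 156 bases apart.
Pde1c: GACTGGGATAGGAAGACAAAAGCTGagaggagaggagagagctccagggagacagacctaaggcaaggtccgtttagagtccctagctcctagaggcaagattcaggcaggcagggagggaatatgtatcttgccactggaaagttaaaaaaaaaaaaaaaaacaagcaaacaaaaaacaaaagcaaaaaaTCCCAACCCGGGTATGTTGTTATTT
Pkhd1: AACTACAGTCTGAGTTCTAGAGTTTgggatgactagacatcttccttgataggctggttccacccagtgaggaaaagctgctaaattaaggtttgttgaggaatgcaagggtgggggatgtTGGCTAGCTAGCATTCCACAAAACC
Dcdc2a: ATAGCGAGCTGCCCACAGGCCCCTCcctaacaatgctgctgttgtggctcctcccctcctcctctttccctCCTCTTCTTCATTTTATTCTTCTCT
Ldb2: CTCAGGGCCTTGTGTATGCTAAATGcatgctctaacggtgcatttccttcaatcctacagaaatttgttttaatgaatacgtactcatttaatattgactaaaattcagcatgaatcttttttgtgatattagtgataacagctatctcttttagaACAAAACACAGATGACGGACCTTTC

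Input listed 23 pairs of the 6 RNAs, in 3 bins, whereas H3K27me3-RADIP listed 372, in 38 bins. Per 1000000 listed pairs this was 17.6 and 262.9, a log2 ratio of 3.90 with an exact 95% interval of 3.29 to 4.57. The interval covers counting error of the listed pairs only, with each pair taken as independent. It covers neither pairs below the listing limit nor the selection of the members. *Pde1c*, *Pkhd1* and *Htr4* were listed in both libraries, with 8, 8 and 7 Input pairs against 92, 72 and 45 after selection. Their log2 ratios were 3.41 (interval 2.37 to 4.66), 3.05 (2.00 to 4.32) and 2.57 (1.41 to 3.96). Since the cells were pooled, a change in some of the cells and a smaller change in all of them cannot be told apart. *Dcdc2a*, *Ldb2* and *Chsy3* were not listed in Input and had 80, 44 and 39 pairs in H3K27me3-RADIP. Among all 8158 pcRNA names found in both tables, 20.2% were higher in H3K27me3-RADIP by a log2 ratio of at least 0.5 after trimmed-mean (TMM) scaling and 21.9% were lower by as much. The 3 members found in both are read against the former share only as a description, since this ratio chose them, and they stood at ranks 1, 3 and 5 of the 8158 by that ratio. Of the 9606 pcRNA names listed in H3K27me3-RADIP, 15.1% had no pair in Input, as did 3 of the 6 members. *Dcdc2a* had the most pairs of these 1448 names and was the only one with at least 50 pairs, while *Ldb2* ranked 3 and *Chsy3* shared rank 4.

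**Figure D1:**
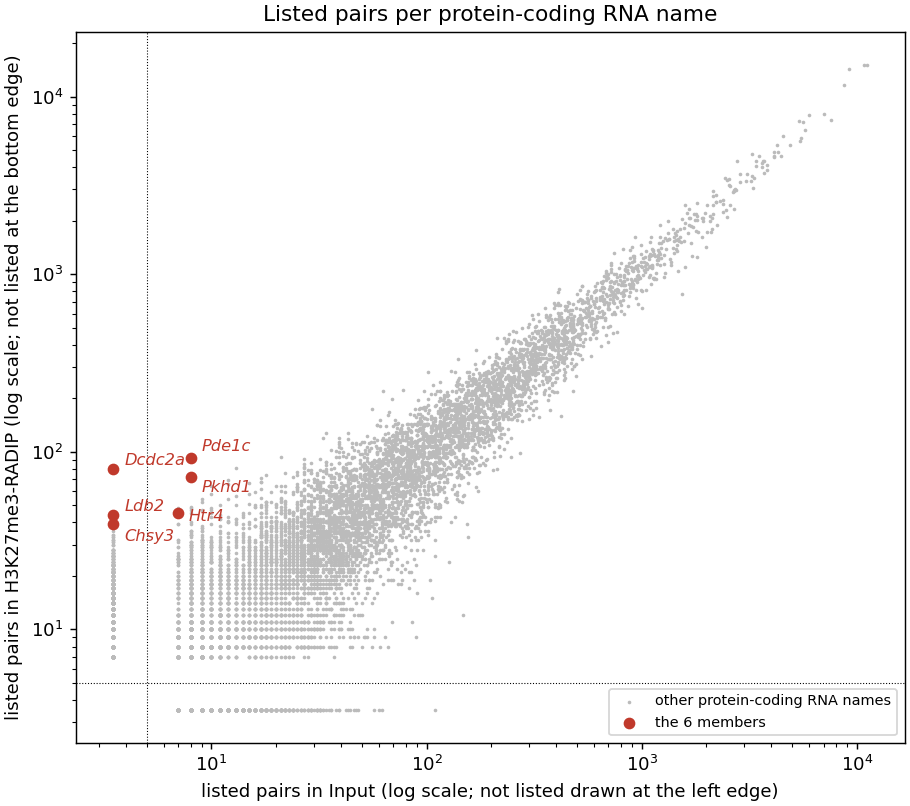
Listed pairs of each pcRNA name in Input (x axis) and H3K27me3-RADIP (y axis), both on log scales, with 1 point per name and names missing from a table drawn beyond the dotted line. The 6 members (red) lie at the upper left edge of the cloud, at no listing to 8 pairs in Input and 39 to 92 in H3K27me3-RADIP.

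The names closest to the rule had numbers among those of the members, so its edge was not sharp. *Fras1* had 8 Input pairs and 74 H3K27me3-RADIP pairs, which falls between *Pde1c* and *Htr4*. *Foxo6* went from no listing to 45 pairs and *Notch3* from no listing to 39, the same number as *Chsy3*. The nearest pcRNAs outside the members in the plane of log2(pairs + 1) over the 2 libraries were *Fras1* and *Slc4a8* (10 and 64 pairs) for both *Pde1c* and *Pkhd1*, *Ttc39c* (8 and 45) for *Htr4*, *Foxo6* and *Notch3* for both *Dcdc2a* and *Ldb2*, and *Notch3* and *Ntf3* (no listing and 38) for *Chsy3*. The distance to the first of these was 0.816 log2 units for *Dcdc2a* and 0.310 for *Pde1c*, and at most 0.0390 for *Pkhd1*, *Ldb2* and *Chsy3*. With 2 libraries, this likeness says only that the numbers were close.

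Most of the members' pairs in H3K27me3-RADIP lay in bins that Input does not list, and the bins listed in both tables held similar numbers. Each of the 3 members found in Input had 1 listed bin there, and H3K27me3-RADIP listed the same bin. In that bin *Pde1c* had 8 Input pairs and 9 H3K27me3-RADIP pairs, a log2 ratio per 1000000 of 0.05 (interval -1.49 to 1.63). *Pkhd1* had 8 and 10 (0.21, -1.29 to 1.75) and *Htr4* had 7 and 8 (0.08, -1.58 to 1.77). Summed over the 3 bins this was 23 and 27 pairs, 0.11 (-0.74 to 0.98), so neither an equal level nor a moderate change in either direction can be told from these counts. The remaining 345 pairs in H3K27me3-RADIP were in 35 bins that Input does not list. They were 90.2% of the *Pde1c* pairs, 86.1% of the *Pkhd1* pairs and 82.2% of the *Htr4* pairs. Over the 1644 pcRNA names that were higher by at least 0.5 the median share was 35.9% (quartiles 18.6% and 51.4%). Since the members were selected for few Input pairs and had at most 1 listed bin there, their high shares follow from the selection and nothing is read from this difference.

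**Figure D2:**
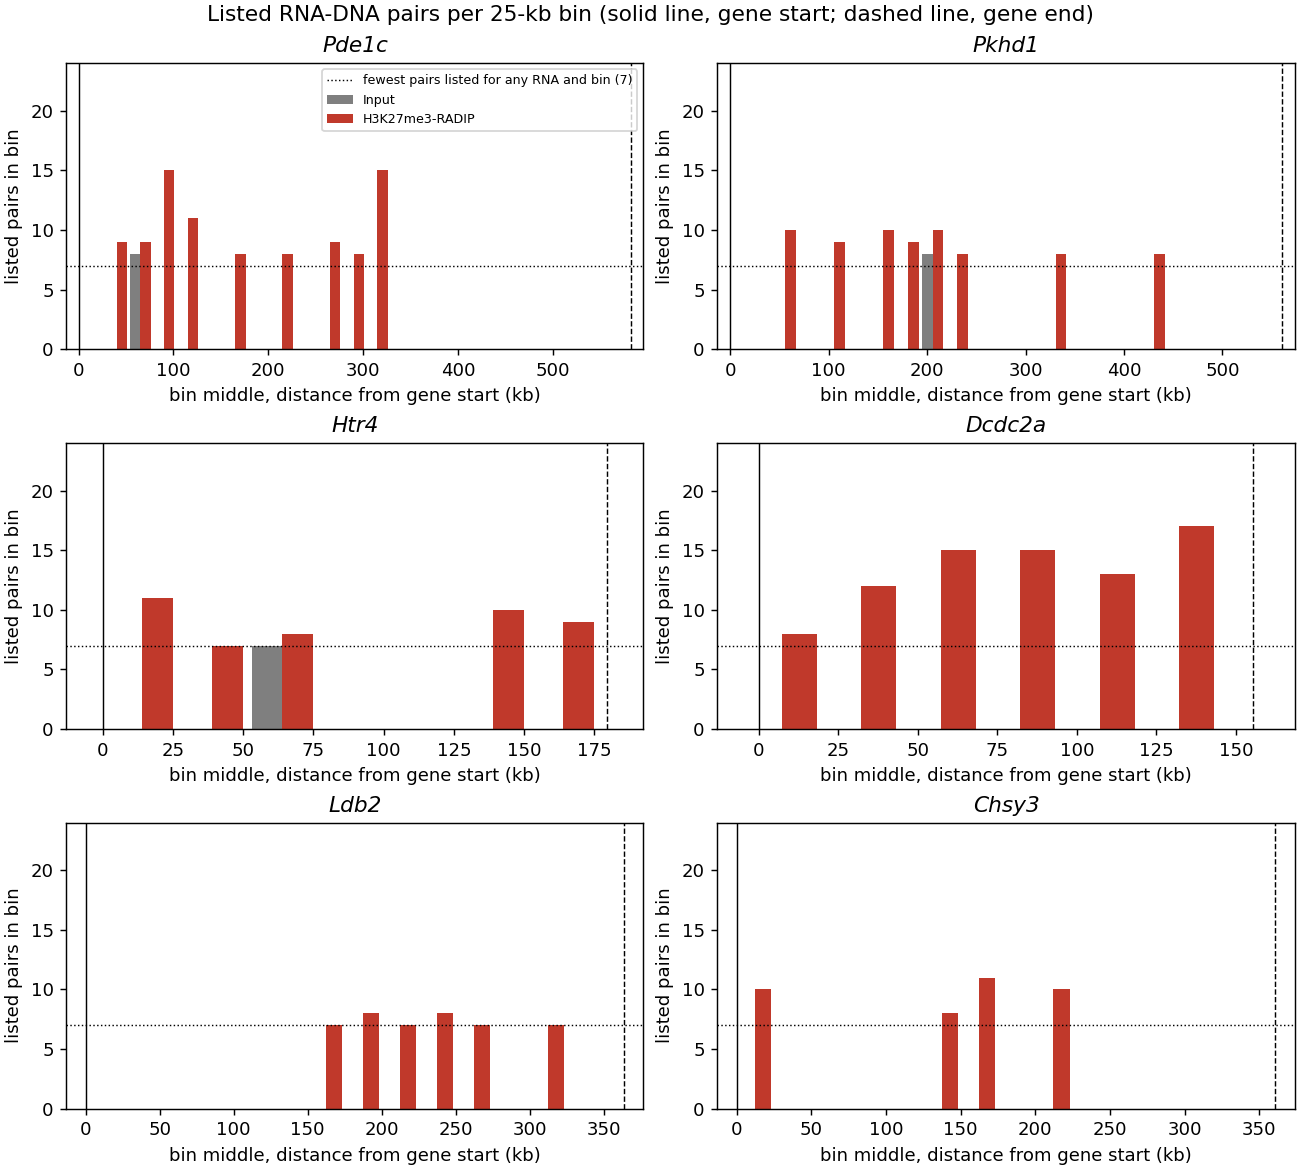
Listed pairs per 25-kb DNA bin (y axis) against the distance of the bin middle from the start of the gene in kb (x axis) for the 6 genes, in Input (grey) and H3K27me3-RADIP (red), drawn side by side within a bin. The 3 grey bars reach 7 or 8 pairs and stand beside red bars of 8 to 10, the red bars elsewhere reach 7 to 17, and the dotted line marks the fewest pairs listed for any RNA and bin, 7.

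How much the bins missing from Input could hold follows from the listing limit. In these tables the *P*-value depended on the RNA and the number of pairs, and every *Pde1c* bin of 8 pairs in H3K27me3-RADIP had the same *q* value, 0.0286. In Input no RNA with a listed 7-pair bin had a *P*-value above 0.000133 at 8 pairs. *Pde1c* had 0.000162 and *Pkhd1* 0.000203 at 8 pairs, which puts their limit at 8, and *Htr4* was listed at 7. The 8 bins that H3K27me3-RADIP alone lists for *Pde1c* could thus hold up to 7 unlisted Input pairs each, or 56, and *Pde1c* could have had up to 64 Input pairs in its 9 bins against the 92 of H3K27me3-RADIP. For *Pkhd1* the most that Input could hold was 57 against 72, and for *Htr4* it was 31 against 45. The smallest ratios per 1000000 these limits allow in the listed bins were 1.33-fold for *Pde1c*, 1.16-fold for *Pkhd1* and 1.34-fold for *Htr4*. As log2 ratios these were 0.41, 0.22 and 0.42, which compare with listed-pair log2 ratios of 3.41, 3.05 and 2.57. The bins enter only because H3K27me3-RADIP reached the limit there, so a bound near or above equality largely follows from that choice. Bins of the gene listed in neither table are left out and counting error is not included, so these are not least enrichments of the genes. *Dcdc2a*, *Ldb2* and *Chsy3* give no Input limit of their own. In H3K27me3-RADIP the limit was 7 for *Dcdc2a* and *Ldb2* and 8 for *Chsy3*. With a limit of 8 assumed for all 3 in Input, Input could hold up to 42, 42 and 28 pairs against 80, 44 and 39, and the smallest ratio would be 1.76-fold for *Dcdc2a*, 1.28-fold for *Chsy3* and 0.966-fold for *Ldb2*. With a limit of 7, as for *Htr4*, Input could hold up to 36, 36 and 24 pairs. The smallest ratio would then be 2.05-fold for *Dcdc2a* and 1.13-fold for *Ldb2*, so the direction of this bound for *Ldb2* depends on the assumed limit. The same choice of bins lies behind these values.

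**Figure D3:**
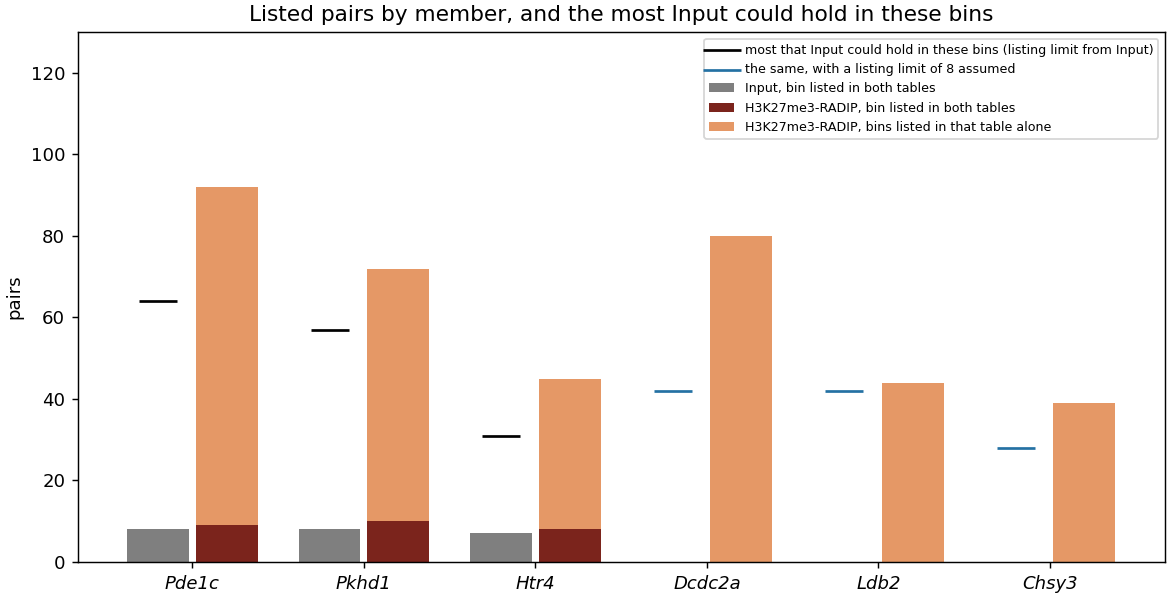
Pairs (y axis) of each member in Input (grey bars) and H3K27me3-RADIP, split into the bin listed in both tables (dark) and bins listed in H3K27me3-RADIP alone (light), with horizontal marks for the most pairs Input could hold in all these bins, its listed pairs included. The marks at 64, 57 and 31 rest on listing limits read from Input and those at 42, 42 and 28 on an assumed limit of 8, and *Ldb2* at 44 pairs stands only just above its mark.

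The *P*-value at a fixed number of pairs also ranks the RNAs by the background the authors' model gave them, which rises with the *trans* reads of the RNA. At 8 pairs in Input, 24.7% of the 4046 RNAs with such a bin had a lower *P*-value than *Pde1c* and 36.8% a lower one than *Pkhd1*. In H3K27me3-RADIP, with 4520 such RNAs, the shares were 27.7% for *Pde1c* and 38.9% for *Pkhd1*. They were 14.5% for *Ldb2*, 15.4% for *Htr4*, 16.2% for *Dcdc2a*, and *Chsy3* came between *Pde1c* and *Pkhd1*. All 6 members were thus in the lower part of that background, and the place of *Pde1c* and *Pkhd1* moved by 2 to 3 percentage points between the libraries.

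*Pde1c*, on the reverse strand of chr6:56069798-56652510, is the longest of the 6 genes at 582.7 kb. Its 92 pairs in H3K27me3-RADIP fell into 9 of the 25 bins over the gene, with 8 to 15 pairs in a bin and *q* values from 3.49e-07 to 0.0286. The fullest bins, with 15 pairs each, were chr6:56325000-56349999 and chr6:56550000-56574999, and 4 adjoining bins formed the longest run, 100 kb. The bin listed in Input was chr6:56575000-56599999, with a *q* value of 0.0311. Divided into 5 equal parts from start to end, the gene gave 34, 18, 33, 2 and 5 RNA tags in H3K27me3-RADIP, and no DNA bin was listed beyond a middle of 315 kb from the start. Of the tags 87 were intronic, 3 exonic and 2 in the 5′ untranslated region (UTR). In the longest coding transcript model, which starts inside the gene as annotated by RefSeq, the 260.2-kb intron 3 held 38 of them, while 14 lay upstream of that model. The 8 Input tags, whose DNA tags share a single bin, numbered 4, 0, 3, 0 and 1 in the 5 parts. The annotation places the lincRNA *Gm8239*, the miRNA gene *Gm44413* and the small RNA genes *Gm24709* and *Gm22493* on the same strand inside *Pde1c*. In H3K27me3-RADIP, 12 *Pde1c* tags lay within these genes, which were themselves not listed in either table, so those tags could belong to either gene.

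*Pkhd1*, on the reverse strand of chr1:20057779-20618082 and 560.3 kb long, had its 72 pairs in 8 of 23 bins, with 8 to 10 pairs in each and *q* values from 0.00184 to 0.0345. No bin stood out, and 4 adjoining bins made up the longest run. The bin listed in both tables was chr1:20400000-20424999. The 5 parts of the gene gave 10, 35, 10, 13 and 4 RNA tags in H3K27me3-RADIP and 0, 7, 0, 1 and 0 in Input. The 8 Input pairs come from the single listed bin, which lies in the second part, and 6 of them have both tags in it, so the Input numbers cannot be told apart from the choice of that bin. Of the 72 tags 71 were intronic and 1 was in the coding sequence, and they fell in 20 of the 66 introns of the longest coding transcript. Intron 36, which is 35.8 kb long, held 13 of them and 5 of the 8 Input tags. In H3K27me3-RADIP its median distance from RNA tag to DNA tag, 32.4 kb, was the highest of the 6, and 25 of 72 pairs (34.7%, Wilson interval 24.8% to 46.2%) were more than 100 kb apart, the range called long-range *cis*. In Input, with 1 bin, the median was 0.62 kb, the lowest of the 3 members listed there. In the bin chr1:20550000-20574999, near the gene start, the median distance was 174.6 kb. The same-strand genes *Gm37315*, *Gm15795* and *Gm24162* and the opposite-strand *4930486I03Rik* overlap *Pkhd1*, and none of its tags in H3K27me3-RADIP lay within those on its strand.

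*Dcdc2a*, on chr13:25055273-25210706, is the shortest gene at 155.4 kb and the one most fully covered. Its 80 pairs filled 6 of the 7 bins over the gene, all adjoining over 150 kb from the start. The bin that holds the gene start had 8 pairs, and the next 5 had 12, 15, 15, 13 and 17, the last being the highest number and the lowest *q* value (5.62e-09) of any member bin. The RNA tags were spread over the whole gene, with 21, 12, 20, 18 and 9 in its 5 parts, and they touched 8 of 9 introns. The 68.3-kb intron 7 held 40 of the 80. By region 77 tags were intronic, 2 in the 5′ UTR and 1 in the 3′ UTR. The DNA tag lay downstream of the RNA tag in 53 of 80 pairs (66.3%, interval 55.4% to 75.7%). Only 2 pairs exceeded 100 kb, and 3 had a DNA tag within 2 kb of the gene start. The pseudogene *Gm11348* on the opposite strand is the only overlapping gene.

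*Ldb2*, on the reverse strand of chr5:44435955-44799759 (363.8 kb), had the lowest median number of pairs per bin of the 6, which was 7. Its 44 pairs lay in 6 of 15 bins with 7 or 8 pairs each, at *q* values of 0.0214 to 0.0888, and no bin passed a *q* value of 0.01. A run of 5 of these bins adjoins, from chr5:44525000 to 44649999, in the middle of the gene. All 44 RNA tags were intronic, and 27 came from the 127.5-kb intron 2. The 5 parts of the gene gave 2, 5, 18, 11 and 8 tags. The median distance was 10.9 kb, and 7 pairs were long-range. The annotation places 11 genes inside the span of *Ldb2*, 9 on its strand, and no *Ldb2* tag lay within those 9.

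*Htr4*, on chr18:62323546-62503027 (179.5 kb), had 45 pairs in 5 of 9 bins, from 7 to 11 in each. The fullest, chr18:62325000-62349999, begins just past the gene start and held 11 pairs at a *q* value of 0.000203. The bin listed in Input, chr18:62375000-62399999, had a *q* value of 0.0952 there, close to the limit of the table. RNA tags lay at both ends of the gene in H3K27me3-RADIP, with 15, 5, 7, 4 and 14 in the 5 parts, and in the middle in Input, with 0, 3, 4, 0 and 0. With 7 Input pairs from a single bin, this difference cannot be told apart from the choice of the listed bin. No pair was long-range in either library, and the median distance was 2.61 kb. No annotated gene overlaps *Htr4*.

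*Chsy3*, on chr18:59175340-59535999 (360.7 kb), had 39 pairs in 4 of 15 bins, with 8, 10, 10 and 11 pairs and *q* values from 0.000314 to 0.0297. A bin with 10 pairs holds the gene start, and 5 of its DNA tags were within 2 kb of that start. With tags within 3 bases counted once these were 2, as many as for *Dcdc2a* and *Htr4*, which had 3 each before. The other 3 lie 137 to 212 kb downstream of the start by their middles. The 229.3-kb intron 2 held 33 of the RNA tags. By region 36 tags were intronic, 2 in the coding sequence and 1 exonic, and no tag came from the last of the 5 parts of the gene, against 22 from the middle one. RefSeq ends the gene at chr18:59411336, before that last part begins. The 15 bins and the empty part thus rest on the longer GENCODE span. No annotated gene overlaps *Chsy3*.

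The members shared several features that did not enter their choice directly, although they come from the same pairs. Every one of the 23 and 372 pairs was in *cis* and had its DNA tag inside the gene that the RNA came from. In H3K27me3-RADIP 19.1% of the 9506 pcRNA names with a gene model had all their DNA tags inside their own gene, and 48.5% of all pcRNA pairs lay so. The genes were long: between 86.9% and 98.5% of those 9506 names belonged to shorter genes, and the median over all 9506 was 42.4 kb. Intronic tags made up 96.5% of the members' pairs in H3K27me3-RADIP (interval 94.1% to 97.9%) and all 23 in Input, beside 89.6% and 88.9% of all pcRNA pairs. At most 3 pairs shared an RNA tag position in either library. In H3K27me3-RADIP no 1-kb window held more than 10.3% of the RNA tags of a member, the highest being in *Chsy3*. The RNAs closest to the members varied in this. *Fras1* had every listed DNA tag in its own gene, while *Foxo6* had 24 of 45 and *Notch3* 33 of 39 in H3K27me3-RADIP. Of 6 RNAs chosen for the opposite change, *Nkain2*, *Cntn4*, *Mei4* and *Kcnt2* had every listed DNA tag in their own gene, while *Lnpep* had 88 of 147 and *Phtf1* 49 of 86 in Input. Intronic tags in Input ranged in these 6 from 110 of 147 for *Lnpep* and 75 of 86 for *Phtf1* to 66 of 66 for *Cntn4*. Their genes spanned 1207.9 kb for *Nkain2*, 1022.5 for *Cntn4*, 368.4 for *Kcnt2*, 342.3 for *Mei4*, 103.6 for *Lnpep* and 56.5 for *Phtf1*. *Fras1* spanned 411.0 kb, *Foxo6* 20.3 and *Notch3* 46.1. A long gene was thus not particular to the members.

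The distance between RNA tag and DNA tag varied widely among pairs and members. Over the members the median was 5.14 kb in Input (23 pairs) and 6.56 kb in H3K27me3-RADIP (quartiles 0.716 and 41.5 kb). Over all *cis* pairs of pcRNAs the median was 44.4 and 68.8 kb, a measure in which names with many pairs weigh most. Counted by name, the median of the medians over all pcRNAs in H3K27me3-RADIP was 7.01 kb (quartiles 2.75 and 20.4 kb). By member the order in H3K27me3-RADIP was *Htr4* (2.61 kb), *Dcdc2a* (4.94), *Pde1c* (6.12), *Chsy3* (8.44), *Ldb2* (10.9) and *Pkhd1* (32.4), with quartile ranges that overlapped between all neighbours in this order. *Pkhd1* thus lay above the upper quartile of the names and *Htr4* below the lower one. Long-range *cis* pairs were 5 of the members' 23 pairs in Input (21.7%, interval 9.66% to 41.9%). In H3K27me3-RADIP they were 14.8% (interval 11.5% to 18.8%) and 10% without *Pkhd1*, compared with 43.7% of the *cis* pairs of all pcRNAs, counted over pairs and not over names. A distance over 100 kb inside a gene needs a gene of that length, and the 2 shortest genes, *Dcdc2a* and *Htr4*, had 2 and 0 such pairs in H3K27me3-RADIP. A 25-kb bin was shared by RNA tag and DNA tag in 60.9% of Input pairs and 54.3% of H3K27me3-RADIP pairs. The DNA tag was downstream of the RNA tag in 52.2% (33.0% to 70.8%) in Input and 54.6% (49.5% to 59.6%) in H3K27me3-RADIP, against 61.1% and 60.1% over all pcRNAs. In the bins listed in both tables the medians differed in both directions between Input and H3K27me3-RADIP, at 114.3 and 48.4 kb for *Pde1c*, 0.62 and 10.4 kb for *Pkhd1*, and 1.08 and 3.23 kb for *Htr4*, with 7 to 10 pairs behind each.

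**Figure D4:**
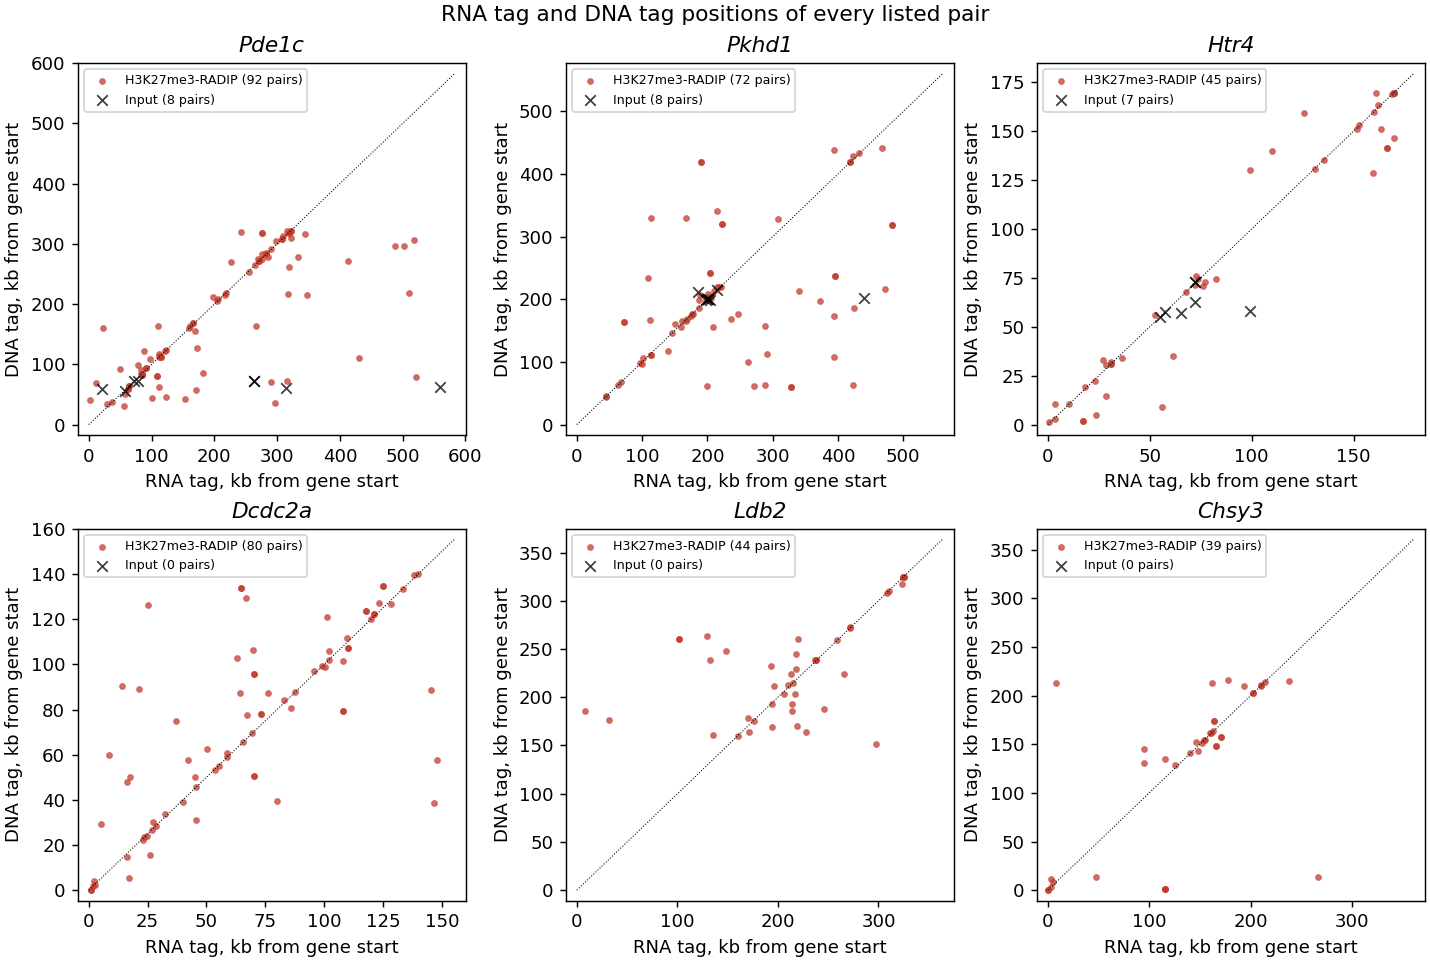
Position of the RNA tag (x axis) and of the DNA tag (y axis) in kb from the gene start for every listed pair of the 6 members, in H3K27me3-RADIP (red dots) and Input (black crosses); the dotted line marks equal positions. Most points lie along the line, *Pkhd1* and *Pde1c* have the most points far from it, and the Input crosses of *Pde1c* form 1 row because they share a single DNA bin.

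The bins of the members held few other RNAs. Of the 38 bins, 35 had no other RNA in either table. No other RNA was listed anywhere over *Pde1c*, *Pkhd1*, *Ldb2* or *Chsy3*. In H3K27me3-RADIP 17.8% of the pcRNA names were alone in all their bins, as were these 4 of the 6 members. The last bin of *Htr4* also held *Fbxo38*, an F-box protein gene that lies 1.13 kb from *Htr4*, with 14 Input pairs and 13 after selection. In 2 bins of *Dcdc2a*, *Cdkal1*, which encodes a tRNA-modifying enzyme, had 17 pairs in H3K27me3-RADIP and was not listed in Input, at a median distance of 4488 kb. The second of these bins had 8 pairs of *Carmil1* in Input, which was not listed there in H3K27me3-RADIP. *Cdkal1* had 2388 and 2252 pairs over all its bins and *Carmil1* 835 and 874. Other RNAs in the 38 bins summed to 22 Input pairs and 30 H3K27me3-RADIP pairs, a log2 ratio per 1000000 of 0.33 (interval -0.51 to 1.19), which was -0.22 at a *q* value of at most 0.01 and -0.07 over all bins of the 6 genes. Without the bins of *Htr4* it was 0.97 and without those of *Dcdc2a* -0.22, so it rests on these 2 genes.

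The annotation places 49 coding genes within 500 kb of the members. In both tables were 18, of which 3 were higher in H3K27me3-RADIP and 7 lower by at least 0.5 in log2 pairs per 1000000. On this scaling 17% of all 8158 pcRNA names were higher and 25.7% lower by as much. Another 6 were listed in Input alone, 4 in H3K27me3-RADIP alone and 21 in neither. Over all pcRNAs, 12.2% of the 9288 names in the Input table and 15.1% of the 9606 in that of H3K27me3-RADIP were missing from the other table. The pairs of the 49 neighbouring genes summed to 874 in Input and 830 in H3K27me3-RADIP.

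Lists of 106 genes from the 6 families held 55 names listed in both tables, with 18 higher and 11 lower by at least 0.5 on the TMM-scaled log2 ratio and a median of 0.17. Over all 8158 pcRNA names 20.2% were higher, 21.9% were lower and the median was -0.01. With repeated positions counted once, 7 of the 55 were lower. A further 18 were listed in H3K27me3-RADIP alone, 5 in Input alone and 28 in neither, where the shares over all names listed in these tables were 15.1% and 12.2%. Of 23 other cyclic nucleotide phosphodiesterases, 5 of the 16 in both tables were higher and 4 lower. The most abundant, the cAMP-specific *Pde4d*, had 3281 and 3047 pairs, *Pde10a* 196 and 250, and *Pde7a* 175 and 116 (log2 ratio -0.63). Of 22 polycystic and nephronophthisis cilium genes, 4 of 13 were higher and 5 lower. *Sdccag8* had 175 and 126 pairs, *Glis2* 135 and 145, and *Pkd1*, which encodes polycystin-1, 77 and 130.

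Of 13 other serotonin receptors, *Htr7* alone was in both tables, with 9 and 21 pairs. Another 5 were listed in 1 table, among them *Htr6* with 17 pairs in H3K27me3-RADIP. The doublecortin family had 3 of 9 in both tables, 2 of them higher, and 4 in H3K27me3-RADIP alone, as were 15.1% of all pcRNA names in that table. *Dclk2* had 444 and 402 pairs, *Dcdc2c* 8 and 30, and *Dclk1*, a doublecortin-like kinase, no listing and 26. Among 20 LIM domain-binding, LIM-only and LIM homeobox genes and their partners, 4 of 11 were higher and none was lower. *Ssbp3*, which encodes a binding partner of LIM domain-binding proteins, had 1125 and 1365 pairs, *Lmx1b*, a LIM homeobox gene, 47 and 110, and *Ssbp2* 34 and 53. Of 19 chondroitin sulphate enzymes, 2 of 11 were higher and 2 lower. *Xylt1*, which starts the linker of these chains, had 606 and 801 pairs, *Ust* 175 and 196, and the sulphotransferase *Chst11* 107 and 237.

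The pcRNAs *Lnpep*, *Nkain2*, *Cntn4*, *Phtf1*, *Mei4* and *Kcnt2* were chosen for the opposite change, so a loss of listed bins from Input to H3K27me3-RADIP follows from their selection. *Lnpep* went from 147 Input pairs over 10 bins to 12 pairs in a single bin, and *Kcnt2* from 109 pairs in 10 bins to no listing. In the bins that both tables list, *Lnpep* had 20 and 12 pairs, *Phtf1* 13 and 11, and *Mei4* 10 and 8. *Nkain2* (89 and 9 pairs) and *Cntn4* (66 and 8) had no bin in common. With 1 merged table per condition, no test of the difference between the 6 gained and the 6 lost RNAs can be made.

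Repeated pairs bear on the bins near the listing limit. Of the members' 372 pairs in H3K27me3-RADIP, 335 had distinct tag positions, and 327 were left when pairs with both tags within 3 bases of another's were also counted once. The share of repeats was 9.95%, beside 9.71% over all pcRNA pairs. Counted in this way, 10 of the 38 bins fell below the listing limit of their own RNA in that table. These were 3 of *Pkhd1*, 2 each of *Pde1c* and *Chsy3*, all against a limit of 8, and 2 of *Ldb2* and 1 of *Htr4* against a limit of 7. In Input the single bin of *Pde1c* had 7 distinct pairs against its limit of 8, so the Input level and the shared bin of *Pde1c* rest on a repeated pair, whereas the bins of *Pkhd1* and *Htr4* kept 8 and 7. Without molecular identifiers, amplified copies and separate molecules cannot be told apart.

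The cell type was checked on marker genes. Of 12 mESC markers, 5 were listed in Input and 6 in H3K27me3-RADIP, with 3048 and 3203 pairs, most of them from *Esrrb* (2388 and 2500). The defining markers *Pou5f1* and *Nanog* were not listed in either table. Of 16 markers of trophoblast, primitive endoderm, neural cells and mesoderm, 5 were listed in Input and 6 in H3K27me3-RADIP, each with at most 41 pairs. Among 6 markers of kidney and neurons, *Umod*, *Slc12a1* and *Snap25* were not listed, *Nphs1* had 22 and 39 pairs, *Rbfox3* 259 and 470, and *Syt1* 33 and 10. Their part in the members' pairs was not tested.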

How the data were processed

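H3K27me3-RADIP and Input of PGK12.1 mESCs were compared as 1 merged table per condition (8 labelled libraries each). The authors cut each read at its bridge adaptor into an RNA part and a DNA part, aligned both to mm10 (the submitters' processing notes list CASAVA 1.8.2, STAR 2.5.0a and BWA 0.7.15-r1140), kept unique pairs, annotated RNA tags with GENCODE, and assigned DNA tags to 25-kb bins. The deposited p-values and q-values came from the authors' negative binomial model with the *trans* reads of each RNA as background, and combinations with a q-value above 0.1 were removed, so pairs before that step were not analysed here.

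Lines of the tables were counted by RNA name. Bins were rebuilt from tag centres, and each RNA and bin then had a single q-value. Gene spans were the union of GENCODE M21 and RefSeq on GRCm38.p6, since the release the authors used was not used here. Ratios were scaled per 1000000 listed pairs, with exact 95% binomial intervals, or by TMM (trims of 30% and 5%), which was tested on simulated data. Shares have 95% Wilson intervals. All intervals cover counting error of the listed pairs only. No test was made between the merged tables. Totals were 1305107 and 1415135 pairs.

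The members and lists were chosen with earlier results of these data known. Named genes were the members, the 3 most abundant names per family list, the most abundant other RNAs in the members' bins, the 2 nearest pcRNAs per member (1 name is not reported here), overlapping genes, 6 pcRNAs lower in H3K27me3-RADIP and marker genes. Sequences were read from GRCm38.p6, 1 stretch per member on the chromosomes used: intronic, free of annotated exons, tags 60 to 250 bases apart, with the most pairs at the same positions. The alternatives tried were stricter q-values (0.01), repeated positions counted once, other scalings, a minimum of 50 pairs, gene identifiers, other bins, windows and distances, and leaving out members. Python 3.11.15, numpy 2.4.6, pandas 2.3.3, scipy 1.17.1 and matplotlib 3.10.9 were used.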

Additional observations from a re-analysis of the deposited data

How the results depend on the processing

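No paired analysis was possible because the replicates were merged and the tables carry no replicate numbers, and for the same reason no replicate could be left out. Of 58 recalculated values, 51 stayed within the counting interval of the value given, or within 1.5 times a count of names, and 7 did not. Some of these could not move. Without *Pde1c*, *Pkhd1*, *Ldb2* or *Chsy3* the log2 ratio of other RNAs stayed at 0.33, since their bins held no other RNA. The 1448 names with no pair in Input cannot depend on scaling or on repeats. Ratios with 1 member left out reuse the contrast that chose the members, and settings that gave no value are not among the 58. The number that stayed is thus not a measure of robustness. The summed log2 ratio of the members' pairs ran from 3.55 without *Dcdc2a* to 4.24 without *Htr4*. At a q-value of at most 0.01 no member was listed in Input, so neither the summed ratio nor the bins listed in both tables gave a value, and H3K27me3-RADIP kept 249 pairs in 22 bins, none of them of *Ldb2*. No pair lay in a bin outside the member's own gene. Among names with at least 50 pairs, 948 pcRNAs were higher by at least 0.5, 1064 were lower and 1 had no pair in Input (*Dcdc2a*). Fewer names enter at this minimum, and of the 1448 names with no pair in Input all but *Dcdc2a* fall below it. The share of pairs beyond 100 kb became 0% when measured from the DNA tag to the nearest end of the gene, as all tags lay inside it, and 10% without *Pkhd1*, a setting chosen after the data were seen. In H3K27me3-RADIP the fullest window held 38.5% of a member's RNA tags at 25 kb, the wider window taking in more tags. With repeated positions counted once, also chosen after the data were seen, 7 of the members' relatives were lower by at least 0.5, and the cause was not tested. The limits of the listing, a single cell line and merged replicates apply to every value. In Input, 3 members had 7 or 8 listed pairs each and 3 had no listed pair, so their intervals are wide or cannot be given. With a listing limit of 7 instead of 8 for the latter, chosen after the data were seen, the smallest ratio for *Ldb2* was 1.13-fold instead of 0.966-fold.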
